A study of Homo sapiens with 61 samples.

Results

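The transcriptional response of human neurons to vincristine was compared between a line lacking DLK, in which the paralog LZK was still present, and a line lacking LZK, in which DLK was still present. For every expressed gene the change with vincristine in the DLK knockout (KO) was set against the change in the LZK KO. A gene whose response differed between the lines would thus stand out. The loss of a kinase cannot be told apart here from other differences between the lines. The comparison used 16 of the 61 libraries of the series, 4 for each line and treatment, and 16747 of 58440 annotated genes had enough reads to be tested. The neurons were derived from WTC11, a human induced pluripotent stem cell line, by doxycycline-driven expression of the neurogenic factor NGN2, and were labelled cortical. At day 14 each line received either 5 nM vincristine or the DMSO vehicle, labelled untreated, for 16 h. All 4 groups carried the NGN2 transgene, and each KO line carried a loss of MAP3K12 (DLK) or of MAP3K13 (LZK). WT neurons and a DLK LZK double KO line, with 8 libraries each, were given the same treatments and serve here as reference. A second experiment of 29 libraries had guides against ATF2 or JUN or a control guide. It used the same dose, hours and day, and is given near the end as levels only. The labels do not say whether a line is 1 clone or whether the 4 libraries of a group came from separate cultures, so the errors and p-values below measure the spread between libraries only.

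DLK and LZK are mixed-lineage kinases that sense damage to axons and to the microtubule cytoskeleton. They phosphorylate the MAP2 kinases MKK4 and MKK7, which activate the JNK kinases, and JNK in turn phosphorylates transcription factors such as JUN and ATF2. In injured neurons this pathway is known to drive regeneration programmes in some settings and neuron death in others. Vincristine is a chemotherapy drug that binds tubulin, prevents microtubule assembly and is known for its toxicity to axons.

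The transcripts of the targeted genes followed the labels. MAP3K12 was measured at 23.7 to 29.7 CPM (read counts scaled to a common library size) in the untreated DLK KO libraries and 73.0 to 82.2 in the untreated LZK KO libraries. MAP3K13 was at 101.8 to 109.9 CPM in the untreated DLK KO and 30.1 to 34.2 in the untreated LZK KO. For reference, untreated WT neurons held 91.0 ± 2.23 CPM (SD, n = 4) of MAP3K12 and 99.1 ± 1.93 of MAP3K13. Neither kinase was called for a difference in response between the lines (MAP3K12 0.06 ± 0.11 and MAP3K13 0.15 ± 0.09 on the log2 scale, adjusted p = 0.903 and 0.650).

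The lines also differed before any treatment. Of the tested genes, 40.2% differed between untreated DLK KO and untreated LZK KO (18.6% higher and 21.7% lower in the DLK KO), and 41.4% between the lines after vincristine (19.6% higher and 21.8% lower). The summed level of 7 neuronal markers was 3630 to 4180 CPM over the DLK KO libraries and 5830 to 6560 over the LZK KO libraries. That sum rested mostly on MAP2, DCX and NCAM1; MAP2 averaged 1230 CPM in the untreated DLK KO and 2290 in the untreated LZK KO, SYN1 62.9 and 68.4, and SNAP25 97.1 and 93.8. The glutamatergic markers SLC17A6 and SLC17A7 summed to 207 to 217 CPM in the untreated DLK KO and 156 to 197 in the untreated LZK KO. In the same groups 4 progenitor markers summed to 196 to 261 and 463 to 619 CPM. The progenitor sum was mostly NES, which averaged 226 and 516 CPM. After vincristine that sum was 473 to 588 CPM in the DLK KO and 916 to 1110 in the LZK KO. Markers of dividing cells summed to 16.4 to 22.6 CPM in the DLK KO and 62.5 to 91.5 in the LZK KO. ISL1, a factor of motor and peripheral neurons, averaged 20.5 CPM in the untreated DLK KO against 0.434 in the untreated LZK KO. Other markers of peripheral-like neurons differed less, with POU4F1 at 193 and 147 CPM and PRPH at 6.64 and 2.48 in the same groups. ATF2, the other transcription factor of the pathway, ranged from 64.5 to 77.8 CPM in the untreated DLK KO and from 129 to 204 in the untreated LZK KO, and averaged 141 in WT and 148 in the double KO. None of the marker genes was called for a difference in response, and their part in the results was not tested. In such bulk libraries fewer cells of a type and less RNA per cell cannot be told apart. Total counts ran from 8410729 to 11157696 over the 16 libraries.

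Both lines responded to vincristine. In the DLK KO 1547 genes (9.24% of those tested) changed at an adjusted p under 0.05 in edgeR's quasi-likelihood test, 1163 upward (6.94%) and 384 downward (2.29%). In the LZK KO 599 genes (3.58%) changed, 399 upward (2.38%) and 200 downward (1.19%). The changes in both lines were mostly small, with 104 genes in the DLK KO and 87 in the LZK KO moving at least 2-fold. The DLK KO count moved with single libraries, from 763 without its first untreated library to 2099 without the fourth treated LZK KO library. The 336 genes called in both lines made up 21.7% of the DLK KO calls and 56.1% of the LZK KO calls, and 334 of them moved the same way. Across all tested genes the effects in the lines, which share no library, had a Pearson correlation of 0.393 (a description across genes, which are not independent replicates). In fits of their own, WT neurons changed 3527 of 16141 genes (21.9%, with 12.2% higher and 9.69% lower) and the double KO 995 of 16304 (6.1%, with 3.09% higher and 3.02% lower). At least 2-fold changes numbered 806 in WT and 22 in the double KO. The WT count was 2260 without untreated library 3 and 6396 without treated library 4, and the double KO count was 371 without untreated library 2 and 462 without treated library 4. In a fit of all 32 libraries WT had 5498 calls and the double KO 12.

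The response itself differed between the knockouts for 19 genes (0.113% of those tested). Of these, 12 (0.0717%) had the more positive change in the DLK KO, and 11 of them are named here: LIPG, HTR5A, ADCY8, CDHR1, JUN, NCR3LG1, PRUNE2, DHCR7, TLE1, BACH2 and NR4A3. The other 7 (0.0418%) had the more positive change in the LZK KO: ARID5A, EGR1, PAPPA, TUBA1B, CDH13, TUBB and UTRN. The smallest difference among the 19 was 0.47 in size on the log2 scale, and 5 differences were at least 2-fold. BACH2 and NR4A3 lie outside the 10 highest differences and are named after their values were seen. At an unadjusted p under 0.05 there were 1529 genes (9.13%), and 51.8% of all differences were above 0. The median standard error of the difference was 0.179 and the median half-width of its 95% interval 0.37. That interval lay within 1 log2 unit of 0 for 12666 genes (75.6%) and within 0.5 for 7082 (42.3%).

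**Figure D1:**
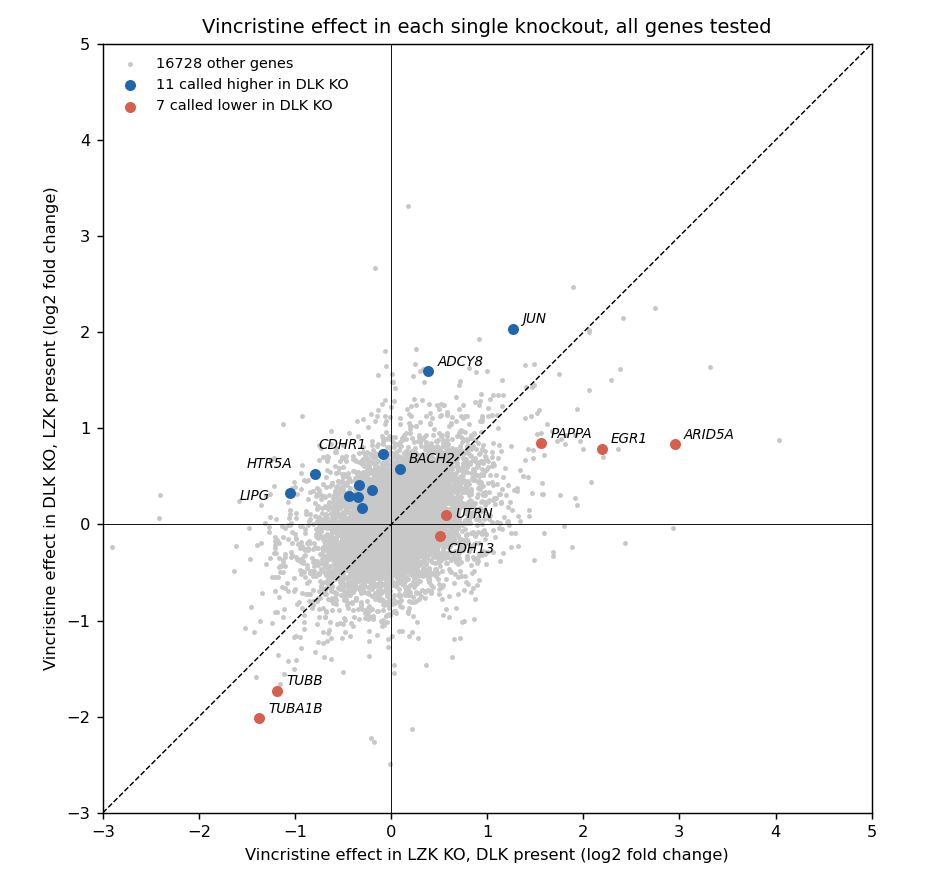
Vincristine effect (log2 fold change) of each tested gene in the LZK KO on the horizontal axis and in the DLK KO on the vertical axis. Grey points are the 16728 genes not called for a difference, blue points 11 of the 12 genes with the more positive change in the DLK KO and red points the 7 with the more positive change in the LZK KO; the dashed line marks equal effects, and JUN and EGR1 lie on opposite sides of it.

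EGR1, ADCY8 and JUN had the smallest p-values. EGR1 and ADCY8 were called under all 26 alternatives tried, and JUN under 25; in the fit with all 32 libraries of the experiment its adjusted p was 0.153. The other 15 named genes were called in 8 to 13 of the 26 alternatives and in 1 to 4 of the 16 fits that left out a single library. None of the 18 named genes changed sign in any alternative. They were chosen by this difference in the same libraries, so a kept sign is no separate support. The number of calls rested on single libraries, with 3 to 8 genes called without any 1 of 14 libraries and 50 without the fourth treated LZK KO library. With that library and the second untreated LZK KO library left out together, a choice made after their low quality weights were seen, 610 genes were called, 471 of them higher in the DLK KO and all 19 among them.

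Transcription regulators among the 18 named genes were JUN, EGR1, ARID5A, BACH2, TLE1 and NR4A3. JUN, the AP-1 subunit phosphorylated by JNK and a target of its own product (GRCh38 chromosome 1, 58780788 to 58784327), was 48.2, 57.9, 60.6 and 54.4 CPM in the 4 untreated DLK KO libraries and 242, 237, 208 and 221 after vincristine. The LZK KO had 117, 100.4, 133 and 114 CPM untreated and 266, 269, 292.5 and 293 CPM with vincristine. The treated libraries were above the untreated ones without overlap in both lines, and the untreated DLK KO was below every untreated LZK KO library. JUN rose by 2.04 on the log2 scale (4.11-fold by group means) in the DLK KO and by 1.27 (2.41-fold) in the LZK KO, a difference of 0.77 ± 0.11 (SE, adjusted p = 0.00282, 4 libraries per group). The untreated gap between the lines of -1.07 narrowed to -0.30 with vincristine. For reference JUN rose by 1.86 in WT and by 0.22 in the double KO, and the treated level was 44.8% of WT in the DLK KO and 55.3% in the LZK KO.

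EGR1, an immediate early zinc finger factor (chromosome 5, 138465490 to 138469315), showed the opposite order. It was 25.1, 29.9, 21.0 and 25.4 CPM in the untreated DLK KO and 48.7, 43.9, 39.6 and 42.8 after vincristine. EGR1 in the LZK KO went from 6.60, 7.70, 6.01 and 5.30 CPM to 24.1, 32.6, 32.4 and 28.0. All treated libraries were above all untreated ones within each line, and the DLK KO was above the LZK KO in both states. The rise was 0.79 (1.73-fold) in the DLK KO and 2.19 (4.57-fold) in the LZK KO, a difference of -1.41 ± 0.18 (adjusted p = 0.000404). Untreated, EGR1 was 3.96 times as high in the DLK KO as in the LZK KO, and with vincristine 1.5 times. Both treated lines were far below treated WT, where EGR1 averaged 299 ± 76.9 CPM, and the double KO stayed at 4.71 ± 1.35 untreated and 4.86 ± 0.555 treated.

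ARID5A, a DNA- and RNA-binding protein that stabilises inflammatory messenger RNAs (chromosome 2, 96536743 to 96552638), had the largest difference in size. Its untreated level was near 1 CPM in both lines, with 0.861, 1.30, 1.15 and 1.29 in the DLK KO and 0.569, 1.08, 1.57 and 0.353 in the LZK KO. With vincristine it reached 2.23, 1.62, 2.10 and 2.29 CPM in the DLK KO and 6.10, 7.48, 6.96 and 8.59 in the LZK KO. The treated LZK KO libraries were all above the treated DLK KO libraries, and in neither line did treated and untreated libraries overlap. The fitted effect was 0.83 in the DLK KO (adjusted p = 0.0657, not called) and 2.95 in the LZK KO, a difference of -2.12 ± 0.41 (adjusted p = 0.0457). Treated WT neurons held 67.2 ± 17.8 CPM, so that the treated level was 3.07% of WT in the DLK KO and 10.8% in the LZK KO.

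BACH2, a repressor of the BACH family that binds AP-1-like sites (chromosome 6, 89926529 to 90296908), was 95.3, 96.1, 94.4 and 97.7 CPM in the untreated DLK KO and 143.5, 144, 136 and 150.5 after vincristine. BACH2 in the LZK KO was 243, 220.1, 249 and 235 CPM untreated and 258, 225, 247 and 281 treated. The treated libraries were all higher in the DLK KO and overlapped the untreated ones in the LZK KO. Its difference was 0.49 ± 0.09 (adjusted p = 0.0457), with effects of 0.58 in the DLK KO and 0.09, not called, in the LZK KO. TLE1, a Groucho-family corepressor, averaged 61.4 ± 4.83 CPM untreated and 78.9 ± 4.93 treated in the DLK KO, and 38.9 ± 2.85 and 33.8 ± 2.83 in the LZK KO. NR4A3, an orphan nuclear receptor induced by activity, went from 73.7 ± 3.64 to 82.8 ± 2.94 CPM in the DLK KO and from 84.1 ± 3.83 to 68.0 ± 3.95 in the LZK KO, with no overlap of treated and untreated libraries in either line. TLE1 and NR4A3 fell in WT neurons, by 1.60 and 1.66 on the log2 scale.

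**Figure D2:**
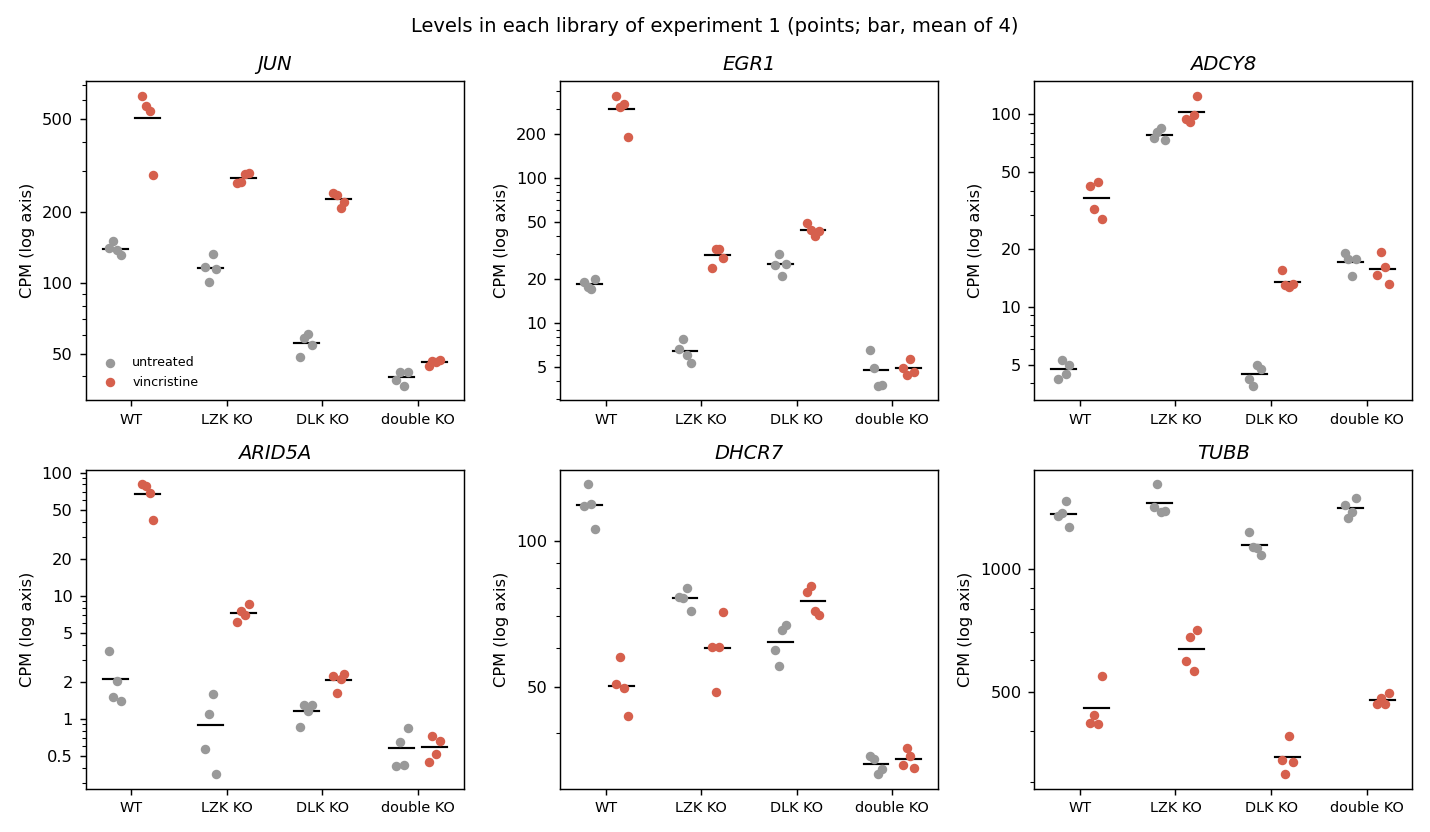
Level (CPM, log axis) of JUN, EGR1, ADCY8, ARID5A, DHCR7 and TUBB in every library of the 4 lines, untreated in grey and with vincristine in red; the bar is the mean of 4 libraries. ADCY8 is higher in every LZK KO library than in any DLK KO library, and DHCR7 rises in the DLK KO and falls in the LZK KO without overlap in either.

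Promoters of these regulators are shown because AP-1 and ATF2 sites are where the pathway's factors are known to bind. Of the 18 named genes, 16 had an entry in the RefSeq promoter table (GRCh38.p14), and the 250 bases before each start were searched on both strands. The AP-1 motif TGANTCA was in 6.57% of 35116 promoters and in 0 of the 16. The CRE motif TGACGTCA, bound by ATF and CREB factors, was in 1.65% of all promoters and in 1 of the 16, BACH2. The C/EBP-ATF composite TGATGNAA was in 3.14% of all promoters and in 0 of the 16. Searched after the sequences were seen, the variant TGACATCA was in 2.37% of promoters and in those of JUN and DHCR7, and the CArG box, the core of the serum response element, was in 1.16% of promoters and in those of EGR1 and PRUNE2. The motif ends 60 bases before the RefSeq start of JUN and 75 before that of BACH2, and the 2 CArG boxes of EGR1 end 96 and 74 bases before its start. Capitals mark these motifs; a match describes letters in the window and not binding. The stretches are chr1:58784096-58784125 (minus strand, within the GENCODE span of JUN), chr5:138465229-138465478 (plus strand) and chr6:90296909-90297093 (minus strand, upstream of the GENCODE span of BACH2).
JUN: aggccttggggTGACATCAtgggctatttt
EGR1: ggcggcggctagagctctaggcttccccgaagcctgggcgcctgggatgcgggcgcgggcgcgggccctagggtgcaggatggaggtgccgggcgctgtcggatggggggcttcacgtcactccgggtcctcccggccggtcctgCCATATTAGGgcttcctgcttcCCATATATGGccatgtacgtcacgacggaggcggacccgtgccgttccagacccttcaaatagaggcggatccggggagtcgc
BACH2: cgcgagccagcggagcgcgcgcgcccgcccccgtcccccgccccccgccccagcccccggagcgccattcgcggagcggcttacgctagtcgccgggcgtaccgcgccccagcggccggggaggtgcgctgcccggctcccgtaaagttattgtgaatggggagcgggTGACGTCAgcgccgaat

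The remaining genes encode signalling, surface and structural proteins. ADCY8, a calcium-stimulated adenylyl cyclase of neurons (chromosome 8, 130780301 to 131042426), was 4.21, 3.89, 4.95 and 4.73 CPM in the untreated DLK KO and 15.4, 13.0, 12.6 and 13.1 after vincristine. ADCY8 in the LZK KO was 74.8, 80.5, 84.6 and 73.2 CPM untreated and 94.3, 91.2, 99.7 and 125 treated. Every treated library was above every untreated one within a line, and every LZK KO library was above every DLK KO library. The log2 effect was 1.60 in the DLK KO and 0.39 in the LZK KO, a difference of 1.21 ± 0.16 (adjusted p = 0.000673). The starting levels were far apart, since untreated ADCY8 was 17.6 times as high in the LZK KO as in the DLK KO and still 7.59 times after vincristine. Untreated WT neurons were near the DLK KO with 4.74 ± 0.491 CPM and rose to 36.9 ± 7.72, while the double KO stood at 17.2 ± 1.92 untreated and 15.8 ± 2.59 treated.

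HTR5A, a serotonin receptor (chromosome 7, 155070324 to 155085749), and LIPG, endothelial lipase (chromosome 18, 49560699 to 49599182), had the highest differences, and both fell in the LZK KO without overlap of the libraries. HTR5A was 6.50, 3.99, 5.83 and 3.98 CPM untreated and 6.41, 8.53, 7.78 and 6.67 treated in the DLK KO, against 5.57, 4.33, 4.90 and 4.71 untreated and 2.10, 2.97, 2.97 and 3.27 treated in the LZK KO. The HTR5A effect was 0.53 in the DLK KO and -0.79 in the LZK KO, a difference of 1.32 ± 0.26 (adjusted p = 0.0457). LIPG averaged 5.02 ± 1.53 CPM untreated and 6.31 ± 0.724 treated in the DLK KO, and 6.89 ± 1.29 and 3.29 ± 0.693 in the LZK KO. Its effect was 0.33, not called, in the DLK KO and -1.05 in the LZK KO, a difference of 1.37 ± 0.28 (adjusted p = 0.0474). Both genes fell in WT, HTR5A by 1.67 and LIPG by 2.45, and neither was called in the double KO.

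PAPPA, a secreted protease that releases insulin-like growth factor from its binding proteins (chromosome 9, 116153804 to 116402322), was 31.0, 39.4, 40.8 and 37.3 CPM untreated and 66.9, 72.1, 62.4 and 65.5 treated in the DLK KO. PAPPA in the LZK KO was 9.55, 12.6, 10.9 and 10.1 CPM untreated and 29.2, 31.7, 34.9 and 31.9 treated. It rose in both lines without overlap, by 0.84 and 1.56, a difference of -0.72 ± 0.14 (adjusted p = 0.0457). Untreated PAPPA was 1.78 log2 units higher in the DLK KO than in the LZK KO, and 1.06 higher after vincristine. PAPPA and EGR1 share an order in which the line with the higher untreated level had the smaller rise. JUN and ADCY8 share it with the lines exchanged. The difference is the treated gap minus the untreated gap, so the untreated level enters both sides of this order. In TLE1, TUBB and UTRN the difference instead had the sign of the untreated gap. Their untreated gaps were 0.66, -0.34 and -0.22, and their differences 0.56, -0.54 and -0.47.

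CDH13, a cadherin without a transmembrane domain, and UTRN, the dystrophin relative utrophin, rose in the LZK KO but were not called in the DLK KO. CDH13 went from 37.1 ± 2.45 to 52.7 ± 7.82 CPM in the LZK KO and from 130 ± 13.5 to 119 ± 3.87 in the DLK KO (difference -0.63 ± 0.13, adjusted p = 0.0457). UTRN went from 77.4 ± 5.85 to 115 ± 1.27 CPM in the LZK KO and from 66.3 ± 3.45 to 71.1 ± 3.51 in the DLK KO (difference -0.47 ± 0.10, adjusted p = 0.0469). The treated LZK KO libraries were all above the untreated ones for both genes. CDHR1 and NCR3LG1, a protocadherin-like protein and a ligand of the natural killer receptor NKp30, rose in the DLK KO and were not called in the LZK KO. CDHR1 rose from 15.2 ± 2.14 to 25.2 ± 2.29 CPM in the DLK KO and was 17.4 ± 1.2 and 16.6 ± 1.92 in the LZK KO (difference 0.81 ± 0.16). NCR3LG1 rose in the DLK KO from 16.5 ± 2.09 to 21.9 ± 0.84 CPM and was 26.3 ± 2.54 and 20.8 ± 2.08 in the LZK KO (difference 0.75 ± 0.15). Its fitted effects were of opposite sign, 0.41 in the DLK KO and -0.33 in the LZK KO. PRUNE2 had effects of 0.30, not called, in the DLK KO and -0.44 in the LZK KO (difference 0.74 ± 0.14), and its treated and untreated libraries did not overlap in either line.

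**Figure D3:**
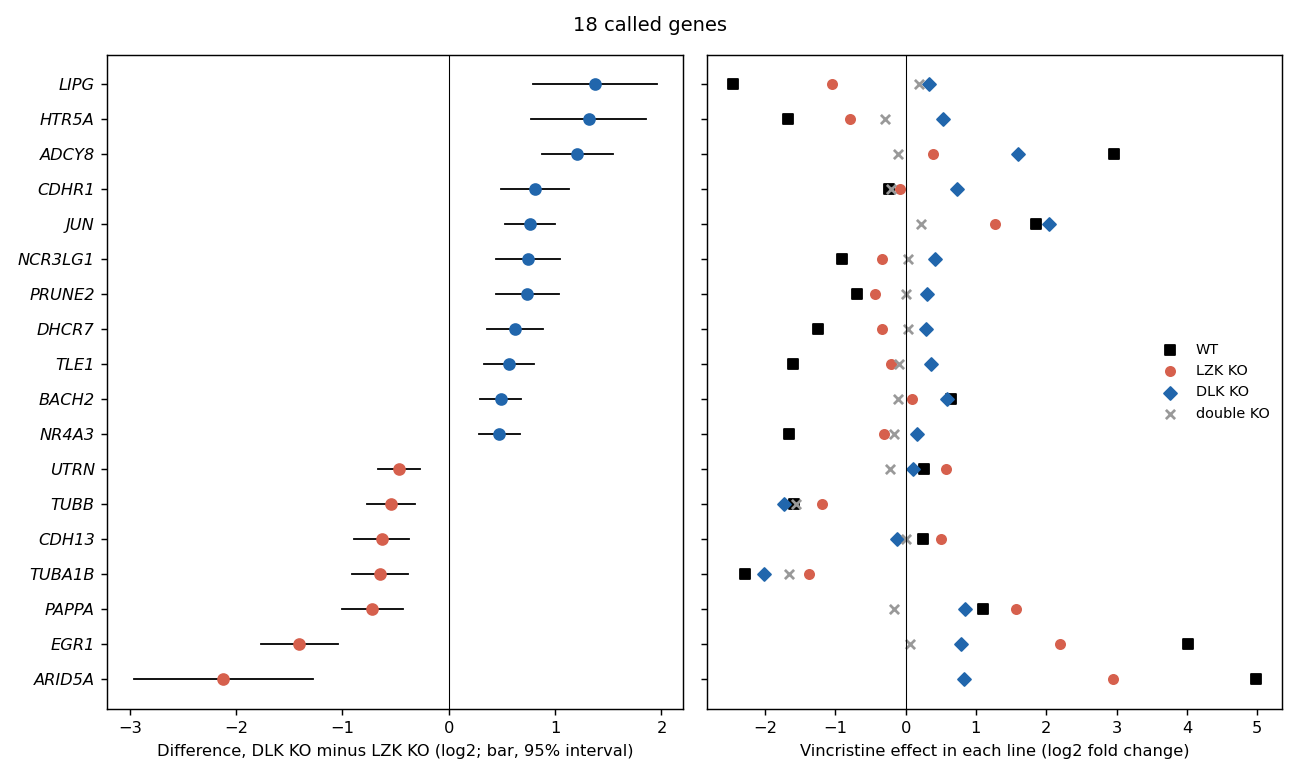
For the 18 named genes, the left panel gives the difference between the vincristine effects (DLK KO minus LZK KO, log2) with its 95% interval. The right panel gives the effects themselves in WT (squares), LZK KO (red circles), DLK KO (blue diamonds) and double KO (grey crosses, no value for ARID5A); the 7 genes that fell in WT and had the more positive change in the DLK KO lie above 0 in the DLK KO and below 0 in the LZK KO.

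The fitted effects had opposite signs in 9 of the 18 named genes, but HTR5A and DHCR7 were the ones called in both lines with opposite signs. The 18 were chosen by the difference of these effects, a choice that favours opposite signs. Of the 18, 8 genes were called in both lines, 4 in the DLK KO alone and 6 in the LZK KO alone. Over all tested genes 9.24% were called in the DLK KO and 3.58% in the LZK KO, and 336 of 16747 in both. Of the 11 named genes with the more positive change in the DLK KO, 7 fell in WT neurons: NCR3LG1, PRUNE2, NR4A3, HTR5A, DHCR7, TLE1 and LIPG. Their WT effects ran from -2.45 to -0.70, the LZK KO effects from -1.05 to -0.20 with 5 called lower, and the DLK KO effects from 0.17 to 0.53 with 4 called higher. In the double KO the effects of these 7 ran from -0.29 to 0.19, and 0 were called. Of the other 4, ADCY8, JUN and BACH2 rose in WT and CDHR1 was not called. Among the 7 genes with the more positive change in the LZK KO, EGR1, PAPPA, ARID5A and UTRN rose in WT, TUBA1B and TUBB fell and CDH13 was not called.

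The gap between the lines was also read at each state. For 11 of the 18 named genes the lines differed both untreated and treated, for 6 only with vincristine and for 1 only untreated. Over all tested genes 40.2% differed untreated and 41.4% with vincristine. The 18 were chosen by the treated gap minus the untreated gap, so the counts in this paragraph are not independent of that choice. Without regard to sign, the gap was smaller with vincristine for 7 genes, among them JUN, EGR1, ADCY8, PAPPA and BACH2, and larger for 11. Among the 11, the gaps of DHCR7 and NR4A3 were called in both states and changed sign. They went from -0.30 to 0.32 and from -0.19 to 0.28.

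Of 12 genes of cholesterol synthesis and its regulation DHCR7 was called, with the more positive change in the DLK KO. DHCR7, which catalyses the last step of cholesterol synthesis (chromosome 11, 71428193 to 71452868), was 59.4, 55.1, 65.6 and 67.1 CPM untreated and 78.5, 80.7, 71.7 and 70.3 treated in the DLK KO. DHCR7 in the LZK KO was 76.8, 76.3, 80.2 and 71.6 CPM untreated and 60.3, 48.8, 60.4 and 71.4 treated. The DHCR7 libraries did not overlap in either line, rising in the DLK KO and falling in the LZK KO. Its effects were 0.29 and -0.34, a difference of 0.63 ± 0.13 (adjusted p = 0.0469).

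All 12 genes of the cholesterol list had a difference above 0, from 0.22 to 0.68 with a median of 0.433, beside a median of 0.00997 over all tested genes. DHCR7 was called, and 10 of the 12 had an unadjusted p under 0.05, beside 9.13% of all tested genes. In the DLK KO 3 of the 12 rose and 0 fell, and in the LZK KO 4 fell and 0 rose. Over all tested genes 6.94% rose and 2.29% fell in the DLK KO, and 1.19% fell and 2.38% rose in the LZK KO. STARD4, a carrier of sterols, had effects of -0.20, not called, and -0.88 (difference 0.68, adjusted p = 0.223). INSIG1, the sterol-regulated anchor of SREBP, had -0.14, not called, and -0.60 (difference 0.46, adjusted p = 0.223). MVD and SREBF2, the latter encoding the transcription factor of the pathway, rose by 0.53 and 0.54 in the DLK KO and were not called in the LZK KO. In WT 10 of the 12 fell, with a median of -1.02, and in the double KO 7 rose, with a median of 0.209. Over all tested genes 9.69% fell in WT and 3.09% rose in the double KO. Untreated, 11 of the 12 were lower in the DLK KO than in the LZK KO, beside 21.7% of all tested genes. Over the alternatives the list median stayed between 0.375 and 0.502, always with 12 above 0, while the number called ran from 0 to 7.

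**Figure D4:**
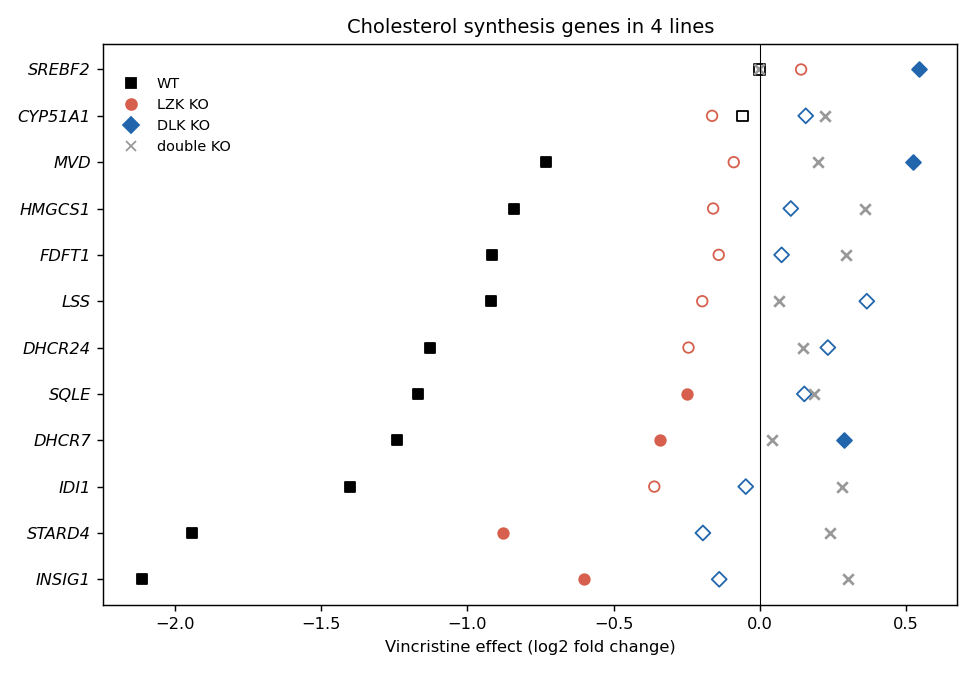
Vincristine effect (log2) of the 12 cholesterol genes in WT, LZK KO, DLK KO and double KO; filled symbols are called and open ones not, and the crosses of the double KO do not mark calls. The DLK KO value lies above the LZK KO value for all 12 genes.

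The tubulins TUBA1B and TUBB fell in both lines, and further in the DLK KO. Tubulin messenger RNA is known to decay when free tubulin dimers accumulate. TUBA1B (chromosome 12, 49127782 to 49131397) was 391, 349, 387 and 352 CPM untreated and 85.0, 81.0, 109 and 90.3 treated in the DLK KO, and 400.4, 476, 381 and 395 untreated and 160, 184, 142 and 153 treated in the LZK KO. TUBB (chromosome 6, 30720201 to 30725426) was 1230, 1133, 1129 and 1084 CPM untreated and 341, 314, 389 and 337 treated in the DLK KO, and 1420, 1615, 1380 and 1386 untreated and 596, 682, 563 and 710 treated in the LZK KO. The treated libraries were below the untreated ones in both lines, and the treated DLK KO below the treated LZK KO, without overlap. TUBA1B fell by 2.02 and 1.37, a difference of -0.65 ± 0.13, and TUBB by 1.73 and 1.19, a difference of -0.54 ± 0.11 (adjusted p = 0.0457 for each). All 12 tubulins had a difference below 0, with a median of -0.39, and these 2 were called. Of the 12, 8 had an unadjusted p under 0.05, beside 9.13% of all tested genes. In the DLK KO 11 of 12 fell, in the LZK KO 9, in WT 11 and in the double KO 10. Over all tested genes 2.29%, 1.19%, 9.69% and 3.02% fell in the same order of lines. The median effect of the list was -1.38, -1.01, -1.57 and -1.45 in that order. TUBA1B had effects of -2.28 in WT and -1.66 in the double KO, and TUBB of -1.58 and -1.56. TUBB2A and TUBB4B had differences of -0.34 and -0.44, and TUBA1C -1.01, none of them called. Each call was lost in 12 of the 16 fits that left out 1 library, and with offsets for GC content and length, added after the data were seen, while the differences stayed at -0.69 for TUBA1B (adjusted p = 0.217) and -0.55 for TUBB (adjusted p = 0.143). Tubulin genes are near-identical copies between which reads may have been split.

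Genes of the integrated stress response, in which the kinases of eIF2alpha raise ATF4 and its targets, rose in both lines. Of 21 tested 12 rose in the DLK KO, 17 in the LZK KO, 21 in WT and 1 in the double KO. Over all tested genes 6.94%, 2.38%, 12.2% and 3.09% rose in the same order of lines. The difference was below 0 for 17 of the 21, with a median of -0.271, while 51.8% of all tested genes were above 0. Of the 21, 0 were called and 8 had an unadjusted p under 0.05, beside 9.13% of all tested genes. SLC7A11, the cystine transporter, was 2.01, 1.90, 2.83 and 2.26 CPM untreated and 6.60, 7.68, 7.26 and 6.67 treated in the DLK KO. In the LZK KO it was 0.910, 0.722, 1.11 and 1.30 CPM untreated and 7.87, 13.5, 12.5 and 7.02 treated. It rose without overlap in both lines, by 1.64 and 3.32, but its difference of -1.68 was just outside the threshold (adjusted p = 0.0521). DDIT3, the factor CHOP, had effects of 0.52, not called, and 1.10, and CHAC1, a glutathione-degrading enzyme, of 0.75 and 1.05 (difference -0.29). PHGDH, the first enzyme of serine synthesis, rose by 0.76 and 0.70 (difference 0.06). With the 2 LZK KO libraries of lowest quality weight left out, 13 of these genes rose in the DLK KO and 13 in the LZK KO.

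Of 24 kinases, scaffolds and phosphatases of the JNK pathway 0 were called for the difference. It was above 0 for 20 of the 24 (51.8% over all tested genes), with a median of 0.133. In the DLK KO 11 rose and in the LZK KO 5, beside 6.94% and 2.38% of all tested genes. DUSP16, a phosphatase that inactivates JNK, rose by 2.00 in the DLK KO and 2.06 in the LZK KO. DUSP1, another such phosphatase, rose by 0.63 and 0.53. MAP2K7, the direct substrate MKK7, had effects of 0.49 and 0.05, not called in the LZK KO (difference 0.43, adjusted p = 0.427). With GC and length offsets the median was 0.0522, the lowest of the alternatives, 17 of the 24 were above 0, and 9 rose in the DLK KO and 7 in the LZK KO.

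Of 12 tested AP-1 and ATF factors JUN was the one called. ATF3, the stress-induced factor that marks injured neurons, rose by 2.15 in the DLK KO and 2.41 in the LZK KO (difference -0.26 ± 0.21, adjusted p = 0.747). CREB5 rose by 2.03 and 2.06. JUND rose by 1.12 and 0.63 (difference 0.49, adjusted p = 0.433), and FOS was called in neither line. Among 14 BCL2 family genes, which set the threshold of apoptosis, 0 were called. HRK, a neuronal pro-apoptotic BH3-only gene, rose by 2.25 and 2.74 (difference -0.49), and BBC3, encoding PUMA, by 1.43 and 1.40. BCL2L11, encoding BIM, rose by 1.25 in the DLK KO and was not called at 0.48 in the LZK KO, and its difference of 0.76 was not called (adjusted p = 0.223). Among 13 tested axon injury genes ARID5A was called; SMAD1, known for its role in axon regrowth, rose by 0.46 and 0.39 and GADD45A by 0.61 and 1.05.

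The other lists held no call either. Of the 10 p53 targets the differences of CDKN1A, BTG2 and ZMAT3 were -0.78, 0.15 and 0.02. The 16 chaperones of the endoplasmic reticulum had a median difference of -0.0183, and HSPA5, XBP1 and PDIA4 were at 0.03, -0.10 and -0.03. Of these 16, 6 fell in the DLK KO, 5 in the LZK KO and 12 in WT. Over all tested genes 2.29%, 1.19% and 9.69% fell in the same order of lines. Differences for axon guidance were 0.05 for UNC5B, 0.23 for EPHA5 and -0.11 for NRP1. For axon maintenance they were 0.18 for STMN4, 0.01 for NMNAT2 and -0.24 for NEFH. The glycolysis and hypoxia genes VEGFA, SLC2A1 and BNIP3 were at 0.09, -0.06 and -0.03, and the synaptic genes SYT1, SLC17A6 and RIMS1 at 0.01, 0.07 and 0.10.

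**Figure D5:**
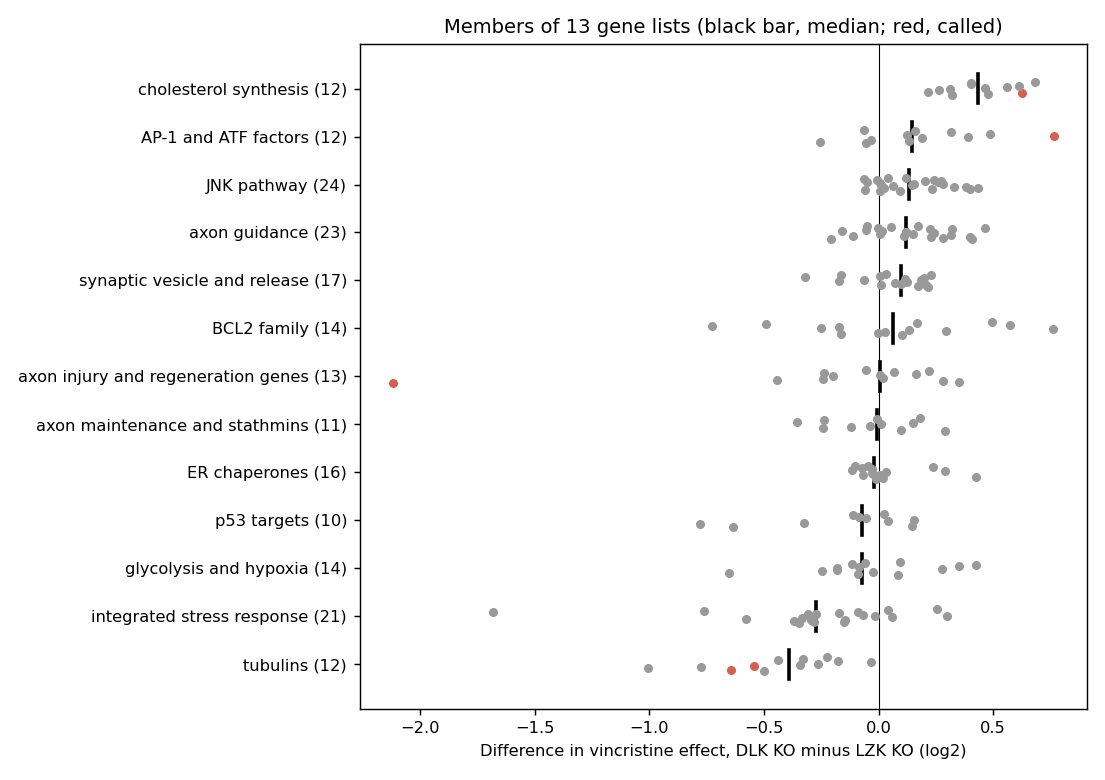
Difference between the vincristine effects (DLK KO minus LZK KO, log2) of every tested member of 13 gene lists. Each dot is a gene, the black bar the list median and red dots are genes called; the cholesterol list lies wholly above 0 and the tubulins wholly below.

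Genes of the WT response were then followed in both lines. A response was defined as a change of at least 2-fold in WT at an adjusted p under 0.05, which gave 697 genes with values in the 16 libraries. The 486 genes that rose in WT, by a median of 1.31, had median effects of 0.367 in the DLK KO and 0.452 in the LZK KO, and -0.00465 over the 410 with a value in the double KO. Of these, 158 were called higher in the DLK KO, 160 in the LZK KO and 117 in both. Over all tested genes 6.94% were called higher in the DLK KO and 2.38% in the LZK KO. Of the 16747 tested genes 336 were called in both lines, in either direction. The change of the 486 was larger in the LZK KO for 289 and in the DLK KO for 197. A larger rise in the DLK KO is a difference above 0, which 51.8% of all tested genes had. The 211 genes that fell in WT, by a median of -1.22, had medians of -0.0985 in the DLK KO and -0.295 in the LZK KO. Of these, 26 were called lower in the DLK KO, 40 in the LZK KO and 16 in both. Over all tested genes 2.29% were called lower in the DLK KO and 1.19% in the LZK KO. The fall of the 211 was larger in the LZK KO for 147 and in the DLK KO for 64. A larger fall in the LZK KO is likewise a difference above 0. The median difference was -0.0998 for the genes that rose in WT and 0.193 for those that fell. Over the alternatives these medians ran from -0.112 to -0.0629 and from 0.152 to 0.242.

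The second experiment of the series, with CRISPR interference guides against ATF2 or JUN and a control guide, gives levels of the same genes when a factor downstream of the kinases is lowered. It has 5 libraries per group, or 4 for treated ATF2 guide neurons. Untreated control guide neurons held 119 ± 6.96 CPM of MAP3K12 and 25.9 ± 1.24 of MAP3K13. Untreated WT neurons of the first experiment held 91.0 and 99.1. Untreated ATF2 was 129 ± 18.6 CPM with the control guide and 0.526 ± 0.294 with its own guide, and untreated JUN was 88.5 ± 6.97 and 2.87 ± 0.447. With vincristine JUN reached 237 ± 12.9 CPM with the control guide (2.68-fold) and 6.43 ± 1.31 with the JUN guide (2.24-fold). With the ATF2 guide JUN was 21.0 ± 2.00 CPM untreated and 20.5 ± 3.08 treated. ADCY8 rose 14.6-fold with the control guide (3.79 ± 0.548 to 55.5 ± 2.82 CPM), 1.62-fold with the ATF2 guide and 2.31-fold with the JUN guide. ARID5A rose 23.8-fold with the control guide, was 0.817-fold with the ATF2 guide and 2.88-fold with the JUN guide. EGR1 was 13.9 ± 1.94 CPM in untreated control guide neurons and 536 ± 16.4 in untreated ATF2 guide neurons, and its rise with vincristine was 9.21-fold, 1.33-fold and 7.54-fold with the control, ATF2 and JUN guides. The 7 genes named above that fell in WT and had the more positive change in the DLK KO were at 0.388 to 0.793 of their untreated level with the control guide, at 0.779 to 1.13 with the ATF2 guide and at 0.656 to 1.05 with the JUN guide. DHCR7 went from 139 ± 6.96 to 59.2 ± 5.90 CPM with the control guide and from 94.3 ± 6.79 to 75.1 ± 4.80 with the ATF2 guide. These folds are given as values, with no test between guides.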

How the data were processed

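Poly(A) RNA of 61 samples was sequenced as paired reads of 100 bases from stranded libraries, per the labels' protocols. The authors deposited raw gene counts for 2 experiments, and the submitters' processing notes name cutadapt 3.4, STAR, featureCounts of Subread 2.0.1 and GRCh38; the strand setting and the handling of duplicates are not given in the sources used here. Of 58440 gene identifiers 56992 matched GENCODE 29 in version and start.

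Counts were analysed in edgeR 4.0.16 (R 4.3.3) with TMM factors over the 32 libraries of experiment 1, its filter on low counts by group, and a quasi-likelihood fit with 1 mean per group over the 16 libraries of the DLK KO and the LZK KO. The difference of responses is (DLK KO vincristine minus untreated) minus (LZK KO vincristine minus untreated). A gene was called at a Benjamini-Hochberg adjusted p under 0.05 over all tested genes; intervals are at 95%. WT and double KO were fitted on their own 8 libraries. Levels are CPM with TMM factors. Named genes were MAP3K12, MAP3K13, ATF2, JUN, the 10 highest and 10 lowest differences among called genes (with the smallest p among others if fewer), and from each list its called members and up to 3 of smallest p in WT. MVD, SREBF2, DDIT3, MAP2K7, JUND and TUBA1C fall outside this rule and are named after their values were seen. A few genes, 1 of them called, are not reported here. Members, gene lists and rules were chosen with earlier results of these data known. Alternatives used DESeq2 1.42.0, limma 3.58.1 voom with quality weights, other factors, filters, a replicate block, GC and length offsets, and libraries left out. Promoters are from RefSeq. Total counts were 8410729 to 11157696 per library.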

Additional observations from a re-analysis of the deposited data

Results flagged for a closer look

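The 18 named genes whose vincristine effect differed between the DLK KO and the LZK KO by a test of the difference itself are listed here with their log2 values (DLK KO minus LZK KO). Higher in the DLK KO were LIPG (1.37), HTR5A (1.32), ADCY8 (1.21), CDHR1 (0.81), JUN (0.77), NCR3LG1 (0.75), PRUNE2 (0.74), DHCR7 (0.63), TLE1 (0.56), BACH2 (0.49) and NR4A3 (0.47). Lower were UTRN (-0.47), TUBB (-0.54), CDH13 (-0.63), TUBA1B (-0.65), PAPPA (-0.72), EGR1 (-1.41) and ARID5A (-2.12).

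In 3 of 84 groups of 4 libraries, over 21 genes, a single library stood apart by Dixon's ratio of its gap to the group's range above the 95% critical value; chance gives this in about 1 in 20 groups. Library 1 of the DLK KO with vincristine was the highest for ADCY8 (ratio 0.839; 15.4 CPM against 12.6 to 13.1) and for UTRN (0.945; 76.4 CPM against 69.2 to 69.6). Library 2 of the untreated LZK KO was the highest for TUBB (0.83; 1615 CPM against 1380 to 1420).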

How the results depend on the processing

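The count of 19 genes depended on the processing. It was 12 with all 32 libraries in the fit, 31 with DESeq2, 146 with voom and quality weights, 72 with no filter and 3 with a replicate block; after seeing the data, GC and length offsets gave 53 and leaving out LZK KO vincristine 4 and LZK KO untreated 2, which had the lowest weights (0.371 and 0.45), gave 610. RLE factors gave 16, 8 in each direction. Leaving out 1 library gave 3 to 50 (without LZK KO vincristine 4). The deviations of same-numbered libraries had correlations from -0.493 to 0.36, with 5 of 24 over 0.1. Single libraries also deviated with the GC content of genes (correlations from -0.59 to 0.65). This check therefore cannot decide whether the numbers pair the libraries. DLK KO calls, 1547, were 3401 with voom, 2660 without those 2 libraries and 763 (without DLK KO untreated 1) to 2099 (without LZK KO vincristine 4) with 1 left out. LZK KO calls, 599, were 1064 with the offsets. With all 32 libraries WT had 5498 calls and the double KO 12; with 1 library left out WT had 2260 (without WT untreated 3) to 6396 (without WT vincristine 4) and the double KO 371 to 1127.

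Of 58 named genes 16 changed sign somewhere, none of them called and none beyond 0.218 in size; the cause was not tested. With the offsets MAP3K12 was -0.019, BBC3 -0.12, XBP1 0.021, UNC5B -0.18, NMNAT2 -0.035 and VEGFA -0.055. With voom DUSP16 was 0.10, CREB5 0.050, ZMAT3 -0.040, PDIA4 0.017, SLC2A1 0.025 and SYT1 -0.033. Without the 2 libraries ZMAT3 was -0.12, PDIA4 0.12, SLC2A1 0.11, SYT1 -0.030 and SLC17A6 -0.051. DESeq2 gave NMNAT2 -0.00135 and SYT1 -0.00323, RLE factors SYT1 -0.00146 and TMM over 16 libraries SYT1 -0.000311. With 1 library left out the ranges were -0.17 to 0.048 (ATF2), -0.095 to 0.14 (BBC3), -0.089 to 0.034 (BNIP3), -0.14 to 0.12 (CREB5), -0.14 to 0.068 (DUSP16), -0.031 to 0.050 (NMNAT2), -0.11 to 0.059 (PDIA4), -0.027 to 0.12 (PHGDH), -0.13 to 0.031 (SLC2A1), -0.037 to 0.036 (SYT1), -0.22 to 0.24 (UNC5B), -0.023 to 0.25 (VEGFA) and -0.097 to 0.11 (ZMAT3). Over 5 bins of genes by GC share the median difference ran from -0.0435 to 0.164.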

Other observations

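Just outside the threshold lay SLC7A11 (-1.68, adjusted p = 0.0521), KLHL5 (0.61, adjusted p = 0.0538) and FSTL4 (-0.81, adjusted p = 0.06) in edgeR's quasi-likelihood test. Chromosome 9 held 4 of the 19 called genes (PAPPA, PRUNE2, NR4A3 and TLE1) among 676 tested genes there. Over all tested genes 0.113% were called, and chromosome 6 held 3 calls among 857 genes. Chromosome 9 is named after the counts of all chromosomes were seen. The difference was below 0 for PAPPA and above 0 for PRUNE2, NR4A3 and TLE1, and the chromosome median was 0.0308.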
